A study of Drosophila melanogaster with 46 samples.

Results

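Small nucleolar RNA (snoRNA) genes were examined in RNA-seq profiles of the third instar larval central nervous system of *Drosophila melanogaster*. They were taken as every row of the deposited expression table whose symbol begins with snoRNA:, which gave 273 of 17490 rows. Names beginning with Me, after the methylation guides, accounted for 98 of them, names beginning with Psi, after the pseudouridylation guides, for 109, and 66 carried other names. The genotypes compared, with 4 libraries each, were Tet CD, a line with a point mutation in the iron-binding motif of TET that removes its catalytic activity (HRD to YRA), and wild type (w1118). In the study's strain list this allele appears as Tet CD-GFP. Each library was made from total RNA of pooled dissected brains. Because each genotype is represented by 1 line, the allele and the rest of the genetic background of that line cannot be told apart. Nothing in the labels says that replicates came from separate cultures or crosses, so p-values measure the spread between these libraries, which may in part be technical.

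snoRNAs are short, stable RNAs of the nucleolus that pair with ribosomal RNA and direct chemical changes to single nucleotides. Box C/D snoRNAs, the Me names, guide 2′-O-methylation with the methyltransferase Fibrillarin, and box H/ACA snoRNAs, the Psi names, guide the conversion of uridine to pseudouridine with the dyskerin homologue Nop60B. In flies most lie within introns of other genes, the hosts, and are cut out of the intron after splicing. They carry no poly(A) tail, and most are shorter than the sequenced fragments of a standard mRNA library. A read counted on a snoRNA gene can therefore come from the mature RNA, from an unspliced host transcript or from a longer precursor, which these values cannot tell apart. In RNA from a whole tissue, fewer cells of a type and less RNA per cell cannot be told apart either.

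The members around which the results turn are shown first as they stand in the reference genome (RefSeq GCF_000001215.4, dm6 coordinates), 5′ to 3′ along the RNA and written as DNA. The first 2 are twins named as guides to the same 28S ribosomal RNA position, and capitals mark the bases that differ between them in an end-to-end alignment. In the third, capitals mark its longest stretch of uninterrupted complementarity to 18S ribosomal RNA. The last 2 are the Psi members of the RpL22 introns with the highest levels, and capitals mark the ACA box.
snoRNA:Me28S-C788a: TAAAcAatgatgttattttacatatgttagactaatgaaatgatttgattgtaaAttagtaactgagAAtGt
snoRNA:Me28S-C788b: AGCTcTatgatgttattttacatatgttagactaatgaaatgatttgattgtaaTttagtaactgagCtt
snoRNA:Me18S-A1806: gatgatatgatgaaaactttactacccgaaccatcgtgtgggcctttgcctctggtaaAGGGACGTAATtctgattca
snoRNA:Psi18S-531: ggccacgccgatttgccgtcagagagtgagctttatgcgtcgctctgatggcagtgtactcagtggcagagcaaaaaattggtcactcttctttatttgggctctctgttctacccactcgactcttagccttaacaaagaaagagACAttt
snoRNA:Psi28S-2179: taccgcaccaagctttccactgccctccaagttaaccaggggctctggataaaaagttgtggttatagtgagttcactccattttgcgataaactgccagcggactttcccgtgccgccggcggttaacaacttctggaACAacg

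The twins snoRNA:Me28S-C788a (chr3L:827312-827383, minus strand, 72 bases) and snoRNA:Me28S-C788b (chr3L:827075-827144, minus strand, 70 bases) were identical at 63 of 72 alignment columns (87.5%), including an unbroken run of 48 columns that holds the 14 bases complementary to 28S ribosomal RNA. Most of their differences lie at the ends. snoRNA:Me18S-A1806 (chr3L:7639717-7639794, plus strand, 78 bases) has 11 bases complementary to positions 1803 to 1813 of the annotated 18S gene. The ribosomal base opposite the fifth base before its D box was the position given in its name; by the known box C/D rule that base is the one methylated. Over the 18 Me members that name an 18S position and have a genome position, the longest complementary stretch held the named position in 11. Members that name a 28S position were not counted this way.

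Sequence features separated the name classes. Of the 72 Me members with a genome position, 58 (80.6%) held the C box letters TGATGA in their first 15 bases and 70 (97.2%) the D box letters CTGA in their last 15. Of the 106 Psi members, 101 (95.3%) held ACA followed by exactly 3 bases at their 3′ end. In windows of the same length ending 500 bases before each gene and read on the same strand, the shares were 2.78% and 6.94% for the Me members and 0.943% for the Psi members. Among the 65 members with other names, 18 held the C box letters, 36 the D box letters and 8 the ACA. The names thus matched the boxes that define the families, and the third class was mixed. Names and gene ends come from the annotation and may themselves rest on these boxes, so the match is not an independent check.

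The size of each library, inferred from the spacing of low RPKM values, was 17479000 to 32582900 reads. Tet, measured at 28.3 to 81.0 RPKM in Tet CD and 76.4 to 88.8 RPKM in wild-type libraries (log2 difference -0.70, adjusted p = 0.153), was not called, and since the allele is a point mutation its RNA level does not check the labels. Defining neuron markers were present in all libraries, with elav at 53.4 to 104 RPKM in Tet CD and 111 to 122 RPKM in wild type. Neuroblast markers (summed level 135 to 149 RPKM in Tet CD, 125 to 154 RPKM in wild type) and glia markers (169 to 190 against 155 to 168 RPKM) were likewise present. Fat body markers summed to 46.2 RPKM in Tet CD replicate 2 and to 21.4 RPKM in wild-type replicate 4, and to between 0.877 and 6.99 RPKM in the other 6 libraries. Of the other tissues that lie on or near the brain, some differed by genotype: trachea markers summed to 148, 128, 96.6 and 87.3 RPKM in Tet CD and 80.7, 63.4, 36.5 and 63.7 RPKM in wild type, and eye disc markers to 40.6, 34.3, 29.4 and 30.4 against 27.3, 27.5, 16.9 and 24.9 RPKM, with no overlap in either list. Ring gland markers summed to 138 to 244 RPKM in Tet CD and 92.9 to 264 RPKM in wild type, and these overlapped. Sums of salivary gland and of body wall muscle markers overlapped as well. Hemocyte markers summed to 16.1 to 25.5 RPKM in Tet CD and 11.5 to 19.1 RPKM in wild type, with eater at 4.90 ± 1.55 and 0.954 ± 1.09 RPKM (adjusted p = 0.0176). Pxn, the highest of them, was at 10.9 ± 2.02 RPKM in Tet CD and 11.9 ± 1.64 RPKM in wild type. None of these genes was called.

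How many snoRNA genes were detected at all was asked first. Of the 273, 86 (31.5%) were listed at 0 RPKM (reads per kilobase of exon, scaled to library size) in all 8 libraries, against 14.3% of all rows. The share was 41.8% for Me names (41 of 98), 21.1% for Psi names (23 of 109) and 33.3% for other names (22 of 66). By named target, 13 of 30 Me members for 18S, 25 of 64 Me members for 28S, 14 of 46 Psi members for 18S and 9 of 63 Psi members for 28S were at 0. Other short RNA genes in the same table were at 0 in 14 of 32 (snRNA: rows), 3 of 15 (scaRNA: rows), 174 of 297 (tRNA: rows) and 159 of 235 (mir- rows). Being listed at 0 does not show absence, because a count of 0 allows up to 3 reads, which for an Me member of median length (79 bases) corresponds to 1.16 to 2.17 RPKM depending on the library, and for a Psi member (140 bases) to 0.657 to 1.23 RPKM. These limits cover counting error only.

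Position relative to other genes also separated detected from undetected members. Genome positions were found for 243 members in the newer Ensembl annotation used here, which has dm6 coordinates. All 26 members that overlap an exon of another gene were at 0, 20 of them overlapping one on the same strand and 6 on the opposite strand only. Of the 217 that overlap no such exon, 48 (22.1%) were at 0. These counts were not split by name class, so the part of exon overlap in the differences between the classes was not tested. The 30 members whose gene identifier is not in that annotation have no position or length here, and 12 of them were at 0. How reads that overlap exons of more than 1 gene were treated in making the RPKM values is not given in the sources used here, and its part in these zeros was not tested.

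**Figure D1:**
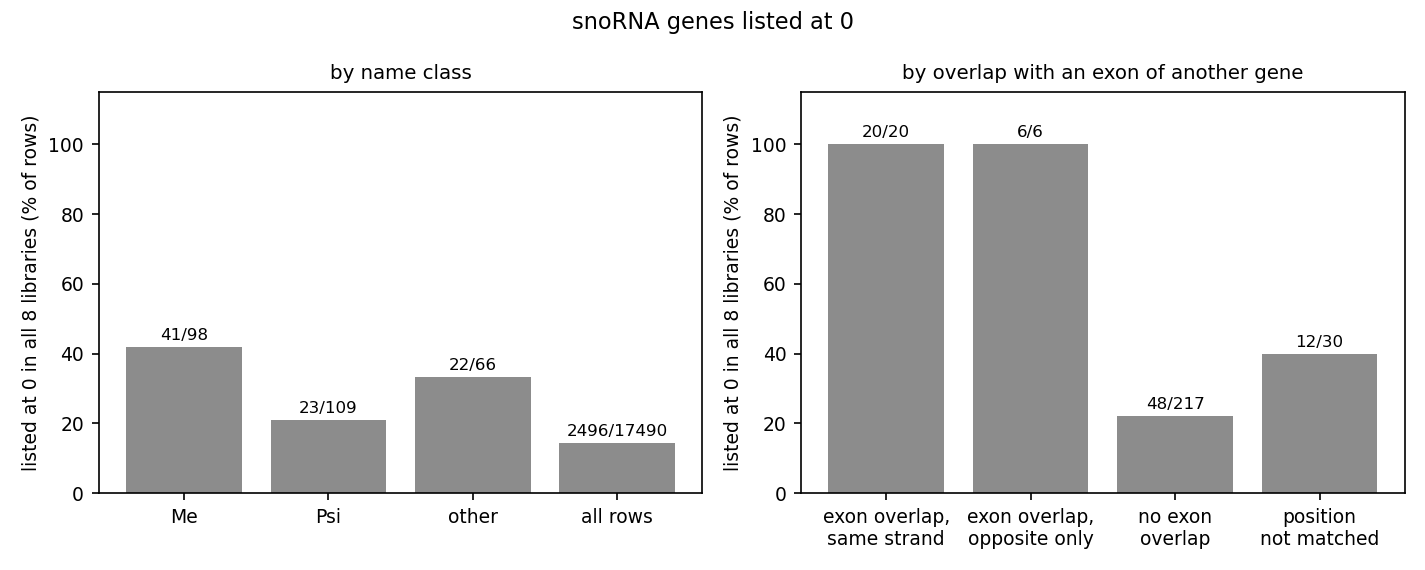
Share of snoRNA genes listed at 0 RPKM in all 8 libraries, in percent of rows, by name class (left, with all rows of the table) and by overlap with an exon of another gene (right). Numbers above the bars are genes at 0 over genes in the set: every gene that overlaps another gene's exon was at 0, against 48 of 217 without such overlap.

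The detected members rested on few reads. Reads could be restored as whole numbers for 166 detected members, within 0.05 of a read, and 83 of those had fewer than 10 reads over the 8 libraries together. In all, 7288 reads were counted on them, between 556 in Tet CD replicate 2 and 1581 in wild-type replicate 2. One read on an Me member of median length was worth 0.388 to 0.724 RPKM and on a Psi member 0.219 to 0.409 RPKM. Mean levels of at least 5 reads per library were reached by 42 members, 12 of them Me, 22 Psi and 8 with other names.

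Levels were led by a few members of each class. snoRNA:Me28S-A1322, a 28S methylation guide in an intron of the translation elongation factor gene Ef1alpha48D (eEF1alpha1), was the highest of all 273, at 141, 32.6, 64.7 and 75.2 RPKM in Tet CD replicates 1 to 4 and 96.4, 80.7, 65.8 and 56.7 RPKM in wild-type replicates 1 to 4. Tet CD replicates held both the highest and the lowest of these values, and the groups overlapped (log2 difference -0.09 ± 0.37, SE, adjusted p = 0.894). It alone took 41.3% of the summed RPKM of the Me class, and the first 5 Me members took 64.0%. Apart from snoRNA:Me28S-C788b and snoRNA:Me18S-A1806, described below with the comparison of genotypes, the next Me members were snoRNA:Me28S-A2113 in RpL30 (12.5 ± 4.55 RPKM in Tet CD and 13.1 ± 6.11 RPKM in wild type, SD, n = 4 each), snoRNA:Me28S-A774a in RpS12 (6.27 ± 3.42 and 7.75 ± 4.43 RPKM) and snoRNA:Me28S-G2703b in Uhg5 (6.65 ± 1.77 and 7.06 ± 2.40 RPKM). Those 3 differed by -0.19 to -0.01 on the log2 scale and were not called.

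Among the Psi members, snoRNA:Psi18S-531 (chrX:763083-763234, minus strand), an 18S guide in RpL22, gene of a large-subunit ribosomal protein, was highest. It was at 53.3, 34.7, 37.5 and 36.5 RPKM in Tet CD libraries and 43.3, 44.4, 37.4 and 37.5 RPKM in wild-type libraries (log2 difference -0.02 ± 0.13, adjusted p = 0.926). Only Tet CD replicate 1 stood apart, and the groups overlapped. A second guide of the same gene, snoRNA:Psi28S-2179 (chrX:763942-764086, minus strand), was at 11.3 ± 4.42 RPKM in Tet CD and 14.3 ± 2.68 RPKM in wild type, so that guides held by 1 gene differed severalfold in level. snoRNA:Psi28S-612 (16.6 ± 3.56 and 17.5 ± 3.43 RPKM), snoRNA:Psi28S-1232 in RpL17 (13.2 ± 3.66 and 10.8 ± 2.15 RPKM), snoRNA:Psi18S-920 in RpL10Ab (11.2 ± 5.16 and 12.7 ± 6.42 RPKM) and snoRNA:Psi28S-291 in RpL3 (7.67 ± 2.59 and 7.31 ± 1.43 RPKM) followed. Except for snoRNA:Psi28S-612, which has no position here, all of these lie within ribosomal protein genes.

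The members with other names were lower. snoRNA:Or-CD10 in RpL7A (7.16 ± 3.59 RPKM in Tet CD and 5.47 ± 2.52 RPKM in wild type), snoRNA:CD-24 in RpS3A (5.07 ± 2.21 and 6.42 ± 3.63 RPKM), snoRNA:Tudor-SN-a in Tudor-SN (3.05 ± 0.333 and 4.55 ± 2.53 RPKM) and snoRNA:Or-CD4 in Uhg5 (2.20 ± 1.66 and 5.12 ± 2.23 RPKM) led this class. None of the 4 was called, and their neighbouring levels in this order lay within each other's spread. Over the whole set, 8 members averaged above 10 RPKM and 60 between 1 and 10 RPKM.

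**Figure D2:**
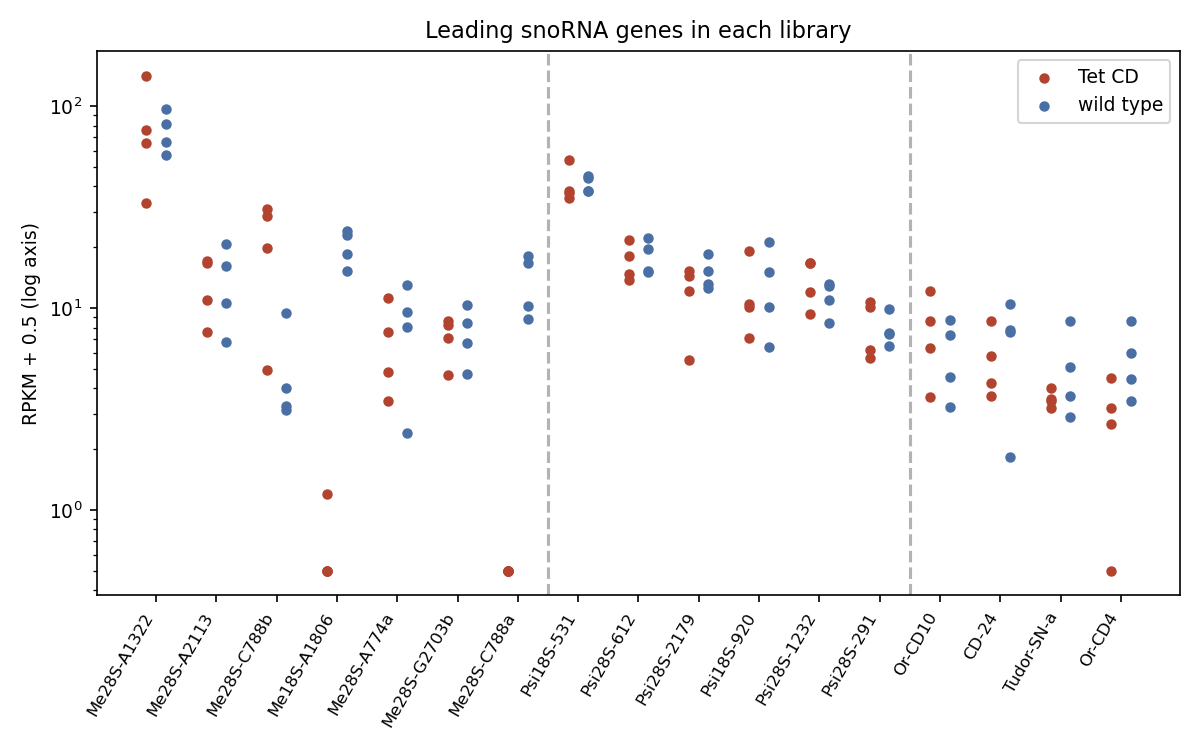
RPKM + 0.5 (log axis) of the leading snoRNA genes in each of the 4 Tet CD (red, left of each pair) and 4 wild-type libraries (blue); dashed lines separate Me, Psi and other names. For most genes the groups overlap, whereas Me18S-A1806 and Me28S-C788a sit at or near the bottom of the axis in Tet CD only.

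Tet CD and wild type were compared next with limma, after adding 0.5 to each RPKM value and taking log2. Genes averaging under 0.5 RPKM were left out, and 91 of the 273 members remained, 30 Me, 40 Psi and 21 others; a call needed a Benjamini-Hochberg adjusted p below 0.01 over all 9357 genes tested and a fold change above 1.2. Of these, 2 were called, both Me and both lower in Tet CD, and 0 were called higher; 2.51% of all genes tested were called, 1.35% as lower. The share of members called was thus near the background. Over all tested members, the called pair included, the median log2 difference was -0.02 for Me, -0.03 for Psi and -0.14 for other names, against -0.006 over all genes tested. Their quartiles, -0.37 and 0.33, were wider than those of all genes tested, -0.15 and 0.13, and their read numbers were low. The unadjusted p was below 0.05 for 10 members, 7 higher and 3 lower, where 28.3% of all genes tested were below it. At an adjusted p below 0.05 in place of 0.01, 4 members were called, against 8.46% of all genes tested, and with limma's array weights 14 were, against 19.8%; those weights rested mainly on Tet CD replicate 3 (weight 6.32, the other Tet CD libraries 0.318 to 0.399).

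**Figure D3:**
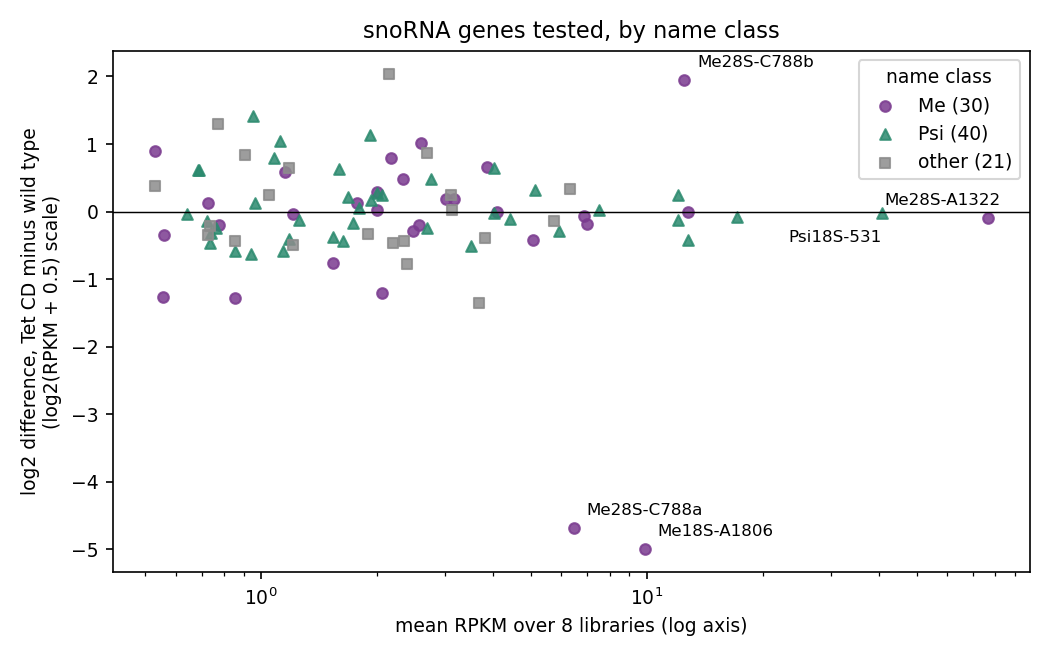
Log2 difference between Tet CD and wild type (Tet CD minus wild type, log2(RPKM + 0.5) scale) against mean RPKM over 8 libraries (log axis), for the 91 snoRNA genes tested, with markers for Me, Psi and other names. All but 2 lie between -1.35 and 2.03; Me28S-C788a and Me18S-A1806 lie at -4.68 and -4.99.

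snoRNA:Me18S-A1806, a guide for 18S ribosomal RNA, was at 0, 0, 0.696 and 0 RPKM in Tet CD replicates 1 to 4 and at 23.5, 22.4, 17.9 and 14.8 RPKM in wild-type replicates 1 to 4. These values rest on 1 read in the 4 Tet CD libraries together and 150 reads in the 4 wild-type libraries. Every wild-type library was high and no Tet CD library came near them. The log2 difference was -4.99 ± 0.29 (SE, limma adjusted p = 1.51e-05), and an exact permutation test over the 70 arrangements of the libraries gave a two-sided p of 0.0286, the smallest it can give with 4 against 4. From reads and library sizes, the Tet CD level was 0.871% of the wild-type level, with an exact 95% counting interval of 0.0219 to 4.93%. The gene has no host on its strand. It lies between Pura, which ends at 7639573, and Urm1, which begins at 7639811 and is read from the other strand. Both neighbours were at like levels in the genotypes, Pura at 15.4 ± 1.63 RPKM in Tet CD and 15.2 ± 1.16 RPKM in wild type, and Urm1 at 19.2 ± 4.20 and 18.2 ± 2.70 RPKM (adjusted p = 0.924 and 0.802).

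snoRNA:Me28S-C788a, one of the twin 28S guides printed above, was at 0 in all 4 Tet CD libraries and at 17.5, 16.2, 9.68 and 8.31 RPKM in wild-type replicates 1 to 4, with 0 and 91 reads in all. The groups did not overlap. The log2 difference was -4.68 ± 0.23 (adjusted p = 4.65e-06; exact permutation p = 0.0286). Set against 3 reads in the shallowest Tet CD library, 2.33 RPKM, the listed level was at least 5.55-fold lower in Tet CD. This bound covers counting error only. It holds for the gene only if reads were placed on the right twin, which is uncertain as described below. Its host CG13900 (Sf3b3), a subunit of the U2 snRNP splicing factor SF3b, was at 46.4, 42.5, 48.2 and 48.6 RPKM in Tet CD and 43.6, 47.6, 47.5 and 48.3 RPKM in wild type (log2 difference -0.01, adjusted p = 0.926). The host as a whole thus gave no difference beside that of its guide.

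The twin snoRNA:Me28S-C788b, 167 bases away in the same host, had the opposite order, at 30.3, 4.44, 27.9 and 19.4 RPKM in Tet CD and 8.99, 3.51, 2.77 and 2.63 RPKM in wild type. It was not called (log2 difference 1.95 ± 0.58, adjusted p = 0.0644), and the groups overlapped because Tet CD replicate 2 lay below wild-type replicate 1. Without Tet CD replicate 2 it was called, at a setting where 2.09% of all genes tested were. Of the reads on the pair, snoRNA:Me28S-C788a took 0% in each Tet CD library and 66.7, 82.6, 78.3 and 76.5% in wild-type replicates 1 to 4. The summed level of the twins was 30.3, 4.44, 27.9 and 19.4 RPKM in Tet CD (20.5 ± 11.7, SD, n = 4) and 26.5, 19.7, 12.4 and 10.9 RPKM in wild type (17.4 ± 7.16), and these groups overlapped. The twins share a run of 48 identical bases, so the split of reads between them is uncertain; whether reads of one were placed on the other was not tested.

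**Figure D4:**
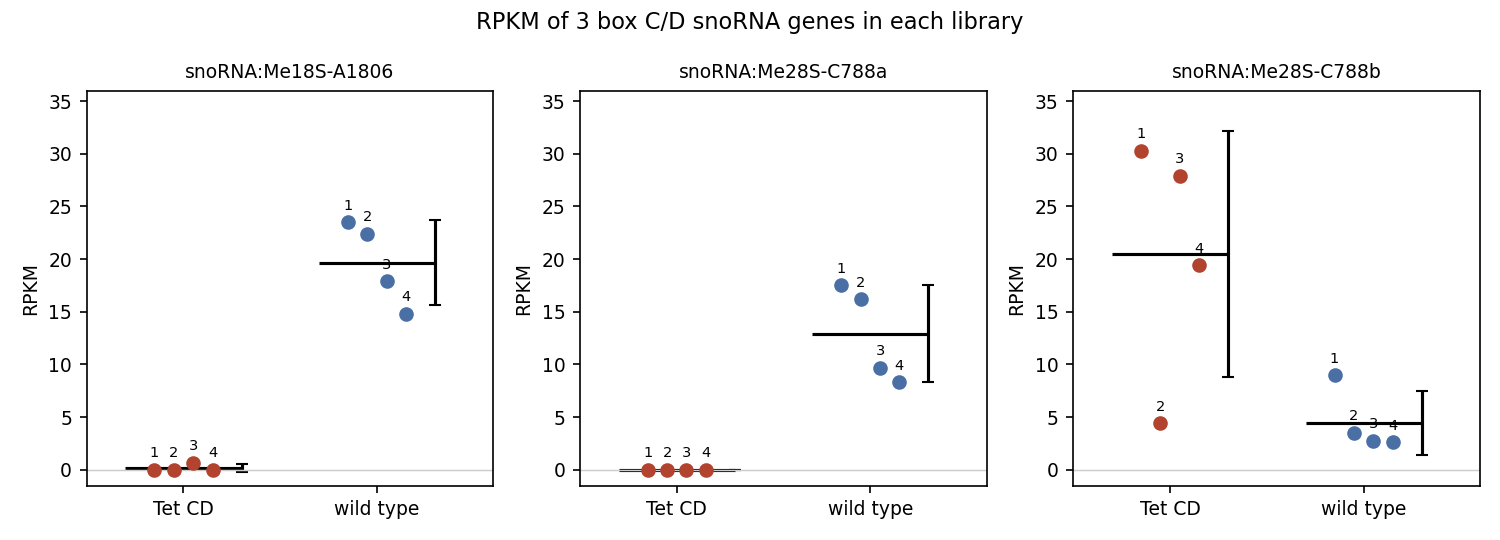
RPKM of snoRNA:Me18S-A1806, snoRNA:Me28S-C788a and snoRNA:Me28S-C788b in each library, Tet CD left and wild type right in each panel; points are libraries with their replicate number, horizontal lines the mean and error bars the SD (n = 4). The first and second genes are at or near 0 in Tet CD and between 8.31 and 23.5 RPKM in wild type, and the third spans 4.44 to 30.3 RPKM in Tet CD and 2.63 to 8.99 RPKM in wild type.

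CG13900 holds 9 members in all, of which 4 were at 0 in every library. Besides the twins, snoRNA:Me28S-A771 was at 0.745, 0, 0 and 0 RPKM in Tet CD and 2.29, 3.27, 0.516 and 0 RPKM in wild type (13 reads in all, adjusted p = 0.212). snoRNA:Psi28S-3308 and snoRNA:Psi18S-110 had 3 and 2 reads, all of them in wild-type libraries. Numbers this small do not separate the genotypes.

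Groups that did not overlap were found for 4 of the 91 members, 3 lower and 1 higher in Tet CD, where 18.8% of all genes tested did not overlap. Beside the called pair these were snoRNA:MeU2-A31, named for the U2 spliceosomal RNA, at 0, 0, 0 and 0.455 RPKM in Tet CD and 1.99, 0.534, 0.673 and 0.8 RPKM in wild type (log2 difference -1.26, adjusted p = 0.0486), and snoRNA:U49:66Da in RpL14, at 0.698, 2.59, 1.36 and 0.654 RPKM in Tet CD and 0, 0.384, 0.484 and 0 RPKM in wild type (log2 difference 1.30, adjusted p = 0.0599). The last rests on 8 reads in Tet CD and 2 in wild type. Neither was called. These 2 and the members of CG10576 described next were chosen after their values were seen.

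Of the members with an unadjusted p below 0.05, 3, all higher in Tet CD, lie in 1 host, CG10576. snoRNA:684 was at 6.44, 1.33, 4.87 and 2.01 RPKM in Tet CD and 0, 1.97, 0.496 and 0 RPKM in wild type (log2 difference 2.03 ± 0.58, adjusted p = 0.0596). snoRNA:Psi28S-1837c had 17 reads in Tet CD and 3 in wild type (log2 difference 1.41 ± 0.38, adjusted p = 0.0489), and was called without Tet CD replicate 2. snoRNA:Psi18S-1397 had 18 and 8 reads (1.05 ± 0.46, adjusted p = 0.169). In all 3 the groups overlapped and none was called. Their host was at 244, 261, 237 and 218 RPKM in Tet CD and 193, 198, 197 and 201 RPKM in wild type, higher in every Tet CD library (log2 difference 0.28 ± 0.06, adjusted p = 0.0206), which also missed the threshold. Its other 2 members, snoRNA:Psi28S-1837a and snoRNA:Psi28S-1837b, had 1 and 0 reads.

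Both called members lie on chromosome arm 3L, which also carries Tet (2786207 to 2879158), at 1.96 megabases from it for snoRNA:Me28S-C788a and 4.85 megabases for snoRNA:Me18S-A1806. Of the 83 tested members with a position, 17 are on 3L, and 7 of those 17 had an unadjusted p below 0.05; 30.7% of all genes tested on 3L did. On 2L, 2R, 3R and X together 2 members did. The 7 members on 3L are not separate units. CG10576 holds 3 of them, and the twins snoRNA:Me28S-C788a and snoRNA:Me28S-C788b share the host CG13900. An excess spread along the arm was not tested and cannot be read from this count. Calls among all genes tested were 3.18% on 3L, 3.14% on 2L, 2.95% on X, 1.89% on 2R and 1.70% on 3R. DNA differences between the lines near Tet were not tested.

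Host genes were described next. A gene on the same strand held 230 of the 243 members with a position. Where several genes held a member, the one with the highest mean RPKM was taken as its host, so the counts by host below depend on that choice. The largest groups were in Arpc2 (17 members, 11 at 0), Uhg1 (16 members, 7 at 0), dom (15 members, 4 at 0), RpS5a (14 members, 3 at 0) and Uhg5 (11 members, 0 at 0). In Nop60B itself 6 of 7 members were at 0, among them members that overlap a Nop60B exon and so belong to the 26 above. Hosts named RpL or RpS, 28 in number, held 72 members, of which 14 were at 0. The ribosomal protein gene sta held 2 more, both at 0. Uhg genes, which make spliced RNAs without a known protein and are known chiefly as snoRNA hosts, held 44, of which 14 were at 0. In 226 pairs with values, 0 members exceeded their host in mean RPKM, an outcome that taking the highest gene as host favours. Levels of members and hosts were related only loosely (Spearman's rho = 0.24 across pairs, which share libraries and in part hosts).

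Of 73 host genes tested 0 were called by limma, and 19 had an unadjusted p below 0.05, where 2.51% of all genes tested were called and 28.3% were below that p; 52 were higher and 21 lower in Tet CD, with a median log2 difference of 0.08. In 75 pairs in which both were tested, the log2 differences of member and host had a Pearson's r of 0.25 and a Spearman's rho of 0.26, given as a description over pairs that share libraries. Of the 7 Uhg genes 6 were tested and 0 called (2.51% of all genes tested were), with 4 at an unadjusted p below 0.05 (28.3% of all). Uhg4 was at 36.2 ± 0.915 RPKM in Tet CD and 30.6 ± 2.37 RPKM in wild type (adjusted p = 0.043), Uhg8 at 10.4 ± 2.66 and 6.89 ± 1.34 RPKM (0.106), Uhg1 at 31.3 ± 1.72 and 37.2 ± 3.43 RPKM (0.073) and Uhg3 at 13.4 ± 2.92 and 18.1 ± 1.84 RPKM (0.0875). These differences thus ran in both directions.

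The proteins that act with the guides were followed as a list of 11 genes. All 11 had a higher mean in Tet CD and 0 were called by limma, 7 with an unadjusted p below 0.05, where 2.51% and 28.3% of all genes tested were, and the median log2 difference was 0.21 against -0.006 over all genes tested. Of the box C/D proteins, Fib (Fibrillarin, the methyltransferase) was at 87.1, 95.8, 93.2 and 79.7 RPKM in Tet CD and 75.4, 80.2, 73.5 and 78.6 RPKM in wild type (adjusted p = 0.078), and the scaffold proteins Nop56 and nop5 and the RNA-binding protein hoip differed by 0.21 to 0.23 on the log2 scale. Of the box H/ACA proteins, Nop60B, the pseudouridine synthase, was at 77.7, 79.7, 83.1 and 65.6 RPKM in Tet CD and 57.0, 61.8, 57.2 and 59.6 RPKM in wild type. Every Tet CD library was above every wild-type library (log2 difference 0.37 ± 0.07, adjusted p = 0.018), which missed the threshold. CG7637, the Nop10 homologue, was at 12.6 ± 2.39 and 8.35 ± 0.752 RPKM (adjusted p = 0.0302), NHP2 at 97.1 ± 13.2 and 85.9 ± 2.11 RPKM (0.245), and CG4038, the Gar1 homologue, at 53.1 ± 4.94 and 50.7 ± 2.36 RPKM (0.602). The assembly ATPases pont and rept differed by 0.06 and 0.07, and the nucleolar chaperone Nopp140 by 0.20 (adjusted p = 0.0616). In the same libraries neuron markers were lower in Tet CD (summed level 289, 180, 221 and 292 RPKM in Tet CD, 324, 337, 326 and 296 RPKM in wild type; 4 of 4 with an unadjusted p below 0.05, 0 called). Trachea markers were higher in Tet CD (median log2 difference 0.82, 4 of 4 below that p, 0 called). So were 3 of 4 eye disc markers, while ninaC was lower (-0.27). Of the hemocyte markers, eater (2.10) and Hml (1.25) were higher, Pxn was slightly lower (-0.13) and NimC1 averaged too little to be tested. The part of these cell types in the values of the snoRNP protein genes was not tested.

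Libraries of 1 genotype differed in their overall snoRNA level. Relative to their wild-type mean, the 91 tested members had a median log2 ratio of 0.39, -0.27, -0.11 and 0.06 in Tet CD replicates 1 to 4 and 0.38, 0.23, -0.11 and -0.50 in wild-type replicates 1 to 4. The summed RPKM of all members was 572, 270, 381 and 395 in Tet CD and 530, 474, 369 and 303 in wild type. Tet CD replicate 2 held the lowest of the 8 values for 27 members and wild-type replicate 4 for 34, and Tet CD replicate 1 and wild-type replicate 1 held the highest for 25 and 28. By class, the median in Tet CD replicate 2 was -0.54 for Me and -0.42 for Psi names. For other names it was 0.20, and that library was lowest for 2 of the 21 tested, so its low level did not extend to that class. The host genes did not follow: their medians were 0.00, 0.21, 0.13 and 0.02 in Tet CD and between -0.03 and 0.03 in wild type. The pair of libraries lowest for snoRNA genes was also the pair with the highest fat body marker sums, 46.2 and 21.4 RPKM, whose part in the snoRNA level was not tested.

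**Figure D5:**
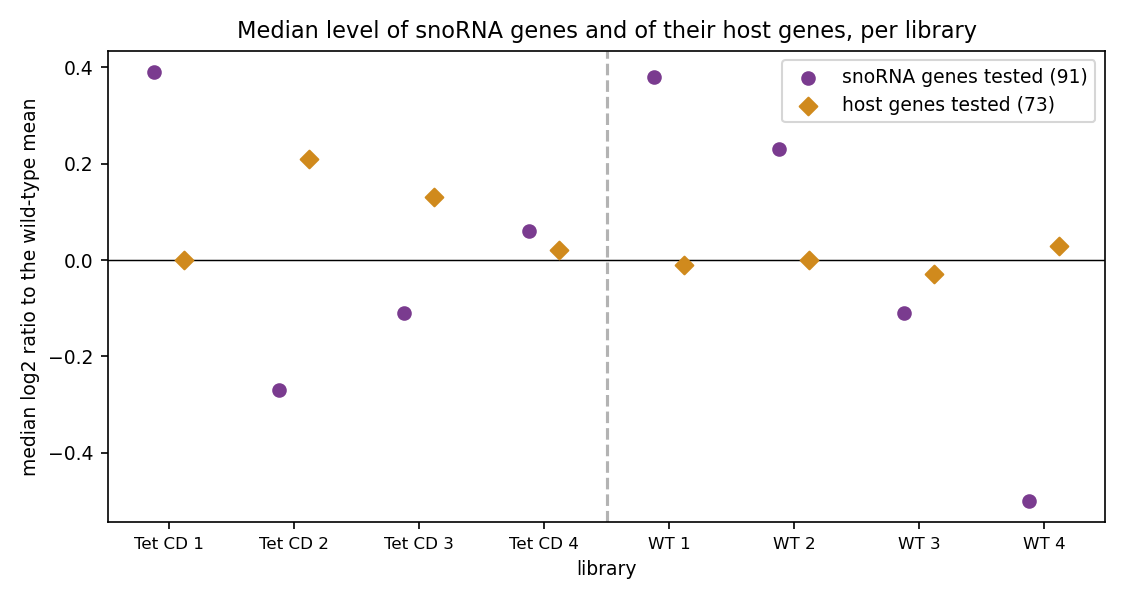
Median, in each library, of the log2 ratio to the mean in wild type, for the 91 snoRNA genes tested (circles) and their 73 host genes tested (diamonds), Tet CD left of the dashed line. The snoRNA medians span -0.27 to 0.39 in Tet CD and -0.50 to 0.38 in wild type, so the genotypes overlap, while host medians stay between -0.03 and 0.21.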

How the data were processed

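Total RNA of pooled larval brains was sequenced by the authors from Illumina TruSeq RNA libraries with paired-end reads. Per their methods, reads were trimmed with Cutadapt, aligned to dm6 (Ensembl release 70) with Hisat2 and counted on genes with HTSeq-Count, and Cufflinks gave the RPKM values that the authors deposited, 1 column per library; tool versions and strand settings for RNA-seq are not given in the sources used here. DESeq2 was used by the authors and not here. Of the table's per-sample columns, 4 matched no sample and were not used. The Tet null genotype and the ChIP-seq and CUT&RUN data were not analysed here.

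Values were compared on log2(RPKM + 0.5) with limma 3.58.1 (R 4.3.3; eBayes with trend) over the 9357 genes averaging at least 0.5 RPKM. A call required an adjusted p (Benjamini-Hochberg) under 0.01 with a fold change over 1.2. The scale understates changes of low genes. Whole reads were restored from RPKM steps and exon lengths of a newer Ensembl annotation of dm6. Between 97.6 and 98.1% of values under 0.3 RPKM lay within 0.01 of a whole read. The fit was tested on simulated data. Python 3.11.15 and pandas 2.3.3 made the summaries.

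Genes are named if called, if among the 6 highest Me, 6 highest Psi or 4 highest other members, if among the 5 largest rises or falls with at least 10 reads and no overlap, or if a host of called members, an snoRNP protein gene, a Uhg gene or Tet; others are marked as chosen after seeing values. Members and lists were chosen with earlier results of these data known. Alternatives were other pseudocounts, filters and scaling, voom on whole reads, a replicate block, array weights, an adjusted p below 0.05 and leaving out each library; leaving out Tet CD replicates 2 and 3 together was added after seeing the data.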

Additional observations from a re-analysis of the deposited data

Results flagged for a closer look

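A sample far from the other 3 of its group was found by Dixon's test in 7 of 82 groups of 4, where chance alone gives about 4.1. In 2 of the 7, snoRNA:Me18S-A1806 and Uhg7, the other 3 libraries were at 0, so that any single read meets the criterion by construction. Among snoRNA genes, snoRNA:Psi18S-531 was at 53.3 RPKM in Tet CD replicate 1, with the other Tet CD libraries at 34.7 to 37.5 RPKM. snoRNA:Me28S-C788b was at 8.99 RPKM in wild-type replicate 1, with the others at 2.63 to 3.51 RPKM. For snoRNA:Me18S-A1806, Tet CD replicate 3 held a single read (0.696 RPKM), with the others at 0. Among the genes that act with or hold them, nop5 was at 96.2 RPKM in Tet CD replicate 4 (others 117 to 121 RPKM), CG7637 at 9.47 RPKM in wild-type replicate 4 (others 7.87 to 8.09 RPKM), Uhg7 at 0.129 RPKM in Tet CD replicate 3 (others 0) and CG13900 at 43.6 RPKM in wild-type replicate 1 (others 47.5 to 48.3 RPKM).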

How the results depend on the processing

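snoRNA:Me18S-A1806 and snoRNA:Me28S-C788a were called lower in Tet CD under every alternative run, with log2 differences between -5.31 and -4.89 and between -4.86 and -4.52 when 1 library was left out. The size of these differences is set largely by the pseudocount, since Tet CD had 1 and 0 reads: it was -6.85 and -6.95 with 0.1 and -2.24 and -1.80 with 5. The number of members called, 2, was 3 with no filter (adding snoRNA:Me18S-C1366, with 0 reads in Tet CD and 5 in wild type), 14 with array weights, 4 at an adjusted p below 0.05 and 2 to 4 with 1 library left out (4 without Tet CD replicate 2). All genes called, 235, were 1850, 792 and 123 to 408 at the last 3 of these settings (fewest without wild-type replicate 1, most without Tet CD replicate 4). They were 132 when Tet CD replicates 2 and 3 were left out together. With the replicate number as a block, 111 of all genes and the same 2 members were called. The labels do not say whether the numbers mark pairs of samples. Same-numbered libraries deviated together by correlations of 0.236, -0.186, 0.04 and -0.105, and not every library correlated best with its own number, which cannot settle it. The median log2 difference of host genes, 0.082, was 0.136 with array weights, 0.013 without Tet CD replicates 2 and 3 and 0.05 to 0.108 with 1 library left out; that of the snoRNP protein genes, 0.205, was 0.256, 0.115 and 0.169 to 0.257. Tet, at -0.70 in the main fit, was at -1.01 with array weights, then past the threshold. It was at -0.11 without Tet CD replicates 2 and 3, and at -0.93 to -0.43 with 1 library left out. Differences near 0 changed sign for snoRNA:Me28S-A1322 (0.48 without Tet CD replicates 2 and 3, and -0.43 to 0.26 with 1 library left out) and CG13900 (0.02 both with array weights and when Tet CD replicates 2 and 3 were left out, and -0.04 to 0.03 with 1 library left out). The cause of these shifts was not tested. Low read numbers limit the precision of most members.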
